A study of Mus musculus with 8 samples.

Results

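The genes described here are 9 fibroblast growth factor (FGF) ligands and receptors with known parts in the hair cycle. They are the ligands Fgf7 and Fgf10, which promote the growth phase (anagen), the ligands Fgf5 and Fgf18, which end anagen or hold follicles at rest, the ligands Fgf20 and Fgf22, and the receptors Fgfr1, Fgfr2 and Fgfr3. They were chosen by name, and all 9 were found by their symbols among the 18770 genes of the deposited expression table. RNA sequencing had been carried out on dorsal skin of wildtype male C57BL/6 mice (C57BL/6J in the methods), 7 to 8 wk old, collected at D4 after depilation, which starts a new hair cycle in resting skin. In the vehicle control (VC) group, 20 µl of 65% ethanol was put on each depilated area once a day. The alpinetin (AP) group received the same volume of 65% ethanol with 3 mg/ml alpinetin, a flavonoid from plants of the ginger family. According to the methods, the tissue was dermis with its hair follicles, with the epidermis between the follicles taken off. How completely it was taken off is not given. Each group had 4 libraries. The question asked of these genes was how their transcript levels in AP-treated skin compared with those in vehicle-treated skin.

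FGF ligands are secreted proteins that bind receptor tyrosine kinases with the help of heparan sulfate proteoglycans, and the bound receptors signal through the adaptor Frs2 and the MAPK relay. In the follicle, the dermal papilla is a source of Fgf7 and Fgf10, which act mainly through the epithelial form of Fgfr2 on hair germ and matrix cells. Fgf5 from the outer root sheath of late anagen follicles brings on regression (catagen), and Fgf18 from the bulge keeps follicles in the resting phase (telogen).

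Read depth differed between the groups. The VC libraries held 7264151, 6833615, 6479827 and 6454563 reads on the listed genes in VC.1 through VC.4. The AP libraries held 8507783, 10853773, 11190113 and 8863517 reads in AP.1 through AP.4. Reads on the 13 mitochondrially encoded genes made up 48.4% ± 5.81 (SD, n = 4) of the VC reads and 8.66% ± 2.63 (SD, n = 4) of the AP reads. That left from 3080758 to 3762217 reads for all other genes in the VC libraries and from 7561598 to 10594787 in the AP libraries. Levels are given below as normalized counts, which are reads divided by the size factor of the library. On that scale 1 read was worth 1.82, 1.48, 1.37 and 1.88 normalized counts in VC.1 through VC.4 and 0.725, 0.539, 0.498 and 0.715 in AP.1 through AP.4. A gene of low level was therefore measured more coarsely in the VC group. The mitochondrial share was larger in every VC library (42.1% to 54.3%) than in any AP library (5.32% to 11.1%). Whatever lies behind this difference cannot be told apart from the treatment in the comparisons below. None of the fits took the share as a covariate, and its part in the values was not tested.

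Levels of the 9 genes were ordered per kb of the longest annotated transcript, as normalized counts per kb averaged over the 8 libraries. The receptors came first, with Fgfr1 at 232, Fgfr2 at 171 and Fgfr3 at 116 normalized counts per kb. Their ranges over the libraries overlapped from neighbour to neighbour, at 143 to 349 for Fgfr1, 74.5 to 253 for Fgfr2 and 42.8 to 189 for Fgfr3. Fgf7 was the highest ligand at 23.4 normalized counts per kb (range 15.0 to 34.5), below every library's value for Fgfr3. Fgf22 at 15.1, Fgf18 at 11.9 and Fgf10 at 7.41 followed, with overlapping ranges. Fgf20 at 1.62 and Fgf5 at 0.284 were the lowest. The order also differed between the groups. In VC, Fgf18 (18.5 normalized counts per kb) lay above Fgf22 (16.5) and Fgf5 (0.460) above Fgf20 (0). In AP, Fgf22 (13.7) lay above Fgf10 (5.27) and Fgf18 (5.23), and Fgfr1 (206.2) and Fgfr2 (205.8) were level. With the median transcript length in place of the longest, Fgfr3 (511 normalized counts per kb) passed Fgfr2 (344) and Fgf10 (44.5) passed Fgf22 (30.5) and Fgf7 (27.3), so the order within the receptors and within the ligands depended on the group and on the transcript assumed.

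Of the anagen-promoting ligands, Fgf7 (ENSMUSG00000027208, chr2:126034658-126091185, plus strand) is the keratinocyte growth factor made by dermal cells. Fgf7 had 40.0, 57.6, 90.1 and 69.4 normalized counts in VC.1 through VC.4 and 92.1, 46.9, 62.8 and 40.8 in AP.1 through AP.4. The groups overlapped throughout, with the highest value in AP.1 and the lowest in VC.1. The reads behind these values were 22, 39, 66 and 37 in the VC libraries and 127, 87, 126 and 57 in the AP libraries. The log2 fold change of AP against VC was -0.09 with a standard error (SE) of 0.35 and a 95% interval of -0.86 to 0.67. Its limma adjusted p was 0.880, and the exact permutation p, two-sided, was 0.857. No difference was detectable, and the interval leaves room for a change of either sign. The sign was not stable, since it turned positive when VC.3 (0.09), AP.2 (0.004) or AP.4 (0.07) was left out. Scaling by total counts, which shifts all genes upward, gave 0.76.

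Fgf10 (ENSMUSG00000021732, chr13:118669791-118792115, plus strand) is a mesenchymal ligand of the same epithelial receptor form. Fgf10 had 41.8, 31.0, 45.1 and 39.4 normalized counts in VC.1 through VC.4 and 13.8, 42.1, 17.9 and 12.9 in AP.1 through AP.4. AP.1, AP.3 and AP.4 lay below every VC library, whereas AP.2 lay inside the VC range. In reads, the VC libraries had 23, 21, 33 and 21 and the AP libraries 19, 78, 36 and 18. The group means were 39.3 ± 6.00 in VC and 21.7 ± 13.8 in AP (SD, n = 4 each). Fgf10 had a log2 fold change of -0.98 (SE 0.43, 95% interval -1.92 to -0.05), with a limma adjusted p of 0.148 and lower values in 3 of 4 AP libraries. The exact permutation test gave p = 0.114, two-sided. Fgf10 thus did not pass the threshold, and without AP.2, its highest AP library, the limma adjusted p was 0.0864 with a log2 fold change of -1.35; over all 21 alternatives it ran from 0.0864 to 0.799. With total-count scaling its log2 fold change was -0.14.

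The ratio of Fgf10 to Fgf7 within a library does not depend on how libraries are scaled; it was chosen after the values had been seen, as were 2 receptor ratios given further on. The ratio of normalized counts was 1.05, 0.538, 0.50 and 0.568 in VC.1 through VC.4 and 0.150, 0.897, 0.286 and 0.316 in AP.1 through AP.4. AP.1, AP.3 and AP.4 were below all VC libraries and AP.2 was within them. The mean log2 ratio differed by -0.93, a difference that the exact permutation test did not separate from the spread (p = 0.143). The 2 anagen-promoting ligands are hence not shown to have differed from each other in their response.

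Markers of the dermal papilla, where both ligands are made, are given beside these values. Their summed level was 1270, 1409.8, 2024 and 2792 normalized counts in VC.1 through VC.4 and 529, 652, 845 and 494 in AP.1 through AP.4, so all 4 AP libraries were below all VC libraries (exact permutation p = 0.0286, the smallest that 4 against 4 libraries can give). That separation rested on Crabp1, since a sum without it, computed after the values were seen, overlapped (538 in VC.4 and 715 in AP.3; exact permutation p = 0.0571). Of the 8 markers, 3 were called lower and 0 higher by limma at an adjusted p under 0.05. Of all genes tested, 10.3% were called in either direction and 4% lower. The median log2 fold change of the markers was -0.92, beside 0.06 over all genes tested. It ran from -1.23 to -0.60 over the alternatives other than total counts. The count of 3 came down to 1 without AP.3, without AP.4, without the intensity trend and with total-count scaling, where the median was -0.05. Crabp1 was both the most abundant and the most changed marker, at 471, 535, 602 and 2254 normalized counts in VC and 169, 269, 130.0 and 140.2 in AP. Its log2 fold change was -2.17 (limma adjusted p = 0.0167; lower in all 4 AP libraries), and the call was lost when AP.3 or AP.4 was left out (adjusted p 0.0517 to 0.0550) and without the intensity trend. No marker of this list was at 0 in either group. In bulk tissue, fewer cells of a type and less RNA per cell cannot be told apart, and the part of the dermal papilla markers in the Fgf10 values was not tested.

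Of the ligands that end anagen or maintain rest, Fgf5 (ENSMUSG00000029337, chr5:98254184-98277030, plus strand) is the catagen signal whose loss gives long hair. Fgf5 had 0, 0, 2 and 1 reads in VC.1 through VC.4 and 0, 2, 0 and 0 reads in AP.1 through AP.4. As normalized counts these were 0, 0, 2.73 and 1.88 in VC and 0, 1.078, 0 and 0 in AP. VC.1, VC.2, AP.1, AP.3 and AP.4 had no read of Fgf5, and the gene missed the filter of at least 3 normalized counts in at least 4 libraries. The level was at or under what 3 reads over a group allow (1.20 normalized counts in VC and 0.452 in AP), so no fold change is given and a difference was not detectable at this depth.

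Fgf18 (ENSMUSG00000057967, chr11:33117430-33147400, minus strand) is the bulge ligand that prolongs telogen. Fgf18 had 23.6, 7.39, 13.7 and 35.6 normalized counts in VC.1 through VC.4 and 7.25, 9.17, 1.99 and 4.29 in AP.1 through AP.4. AP.1, AP.3 and AP.4 were below the lowest VC library, VC.2, and AP.2 was above it, while the VC libraries themselves spread over a wide range. The reads were few, 13, 5, 10 and 19 in VC and 10, 17, 4 and 6 in AP. The group means were 20.1 ± 12.3 in VC and 5.68 ± 3.17 in AP (SD, n = 4 each). For Fgf18 the log2 fold change was -1.60 (SE 0.63, 95% interval -2.98 to -0.21), with a limma adjusted p of 0.117 and an exact permutation p of 0.0571, two-sided. By limma Fgf18 was not called. DESeq2 on the recovered reads called it lower, with a log2 fold change of -1.81 and an adjusted p of 0.0454, the lowest over the 20 alternatives that could test it; the highest was 0.293, without AP.3. Its log2 fold change was below 0 in all 20, from -1.97 to -0.82.

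Summed over both, the anagen-ending or resting ligands had 23.6, 7.39, 16.4 and 37.5 normalized counts in VC.1 through VC.4 and 7.25, 10.2, 1.99 and 4.29 in AP.1 through AP.4. Almost all of this signal was Fgf18. The same sum for the anagen-promoting ligands was 81.9, 88.7, 135 and 109 in VC and 105.9, 89.0, 80.7 and 53.6 in AP. Neither sum separated the groups, with exact permutation p = 0.0571 for the first and p = 0.229 for the second, and whether the 2 kinds of ligand responded differently was not tested. Markers of the follicle stem cells, among which bulge cells count, lay in overlapping ranges. Their 6 genes summed to 7489, 6446, 7712 and 5466 normalized counts in VC.1 through VC.4 and 9155, 4881, 10218 and 9085 in AP.1 through AP.4, with 0 of 6 called by limma, 0 of 6 at an unadjusted p under 0.05 and Krt15 the most abundant. Lgr5, the most changed of them, had a log2 fold change of 0.50 (limma adjusted p = 0.352). Of all genes tested, 10.3% were called by limma and 30.3% had an unadjusted p under 0.05.

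Fgf20 (ENSMUSG00000031603, chr8:40279166-40308331, minus strand) is an epithelial ligand of the hair placode that directs formation of the dermal condensate. Fgf20 had no read in any VC library and 5, 8, 8 and 10 reads in AP.1 through AP.4. As normalized counts it was 0 in VC.1 through VC.4 and 3.63, 4.31, 3.99 and 7.15 in AP.1 through AP.4. The groups did not overlap, and the exact permutation p was 0.0286, two-sided, which is the smallest value available. Against the 1.20 normalized counts that 3 reads over the VC group would give, the AP mean of 4.77 ± 1.61 (SD, n = 4) was at least 3.96-fold higher. This bound covers counting error only. The paper had named Fgf20 among the genes raised by AP, from the same sequencing. The p-value and the bound therefore describe these values and are no separate support.

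Fgf20 met the filter on low values only through its AP libraries. Its limma adjusted p was 0.0557, just past the threshold, with higher values in 4 of 4 AP libraries. The call depended on the setting, with adjusted p from 0.00230 to 0.0780 over the 16 alternatives that could test it. DESeq2 (adjusted p = 0.0401), limma with no filter (0.0174), limma without the intensity trend (0.00230) and limma after total-count scaling (0.00512) called it, whereas edgeR (0.0508) and limma-voom (0.0524) did not. When the reads outside the mitochondrial genes were drawn down to 3080758 in every library, Fgf20 had 0 reads in each VC library and 2, 3, 3 and 3 reads in AP.1 through AP.4. The groups still did not overlap, at read numbers too low to size the difference, and the limma adjusted p was then 0.0628. An exon of Micu3 on the opposite strand overlaps Fgf20, and whether the counting used strand is not given in the sources used here. Micu3 had 40.0, 35.5, 53.3 and 26.3 normalized counts in VC.1 through VC.4 and 33.4, 31.3, 23.9 and 19.3 in AP.1 through AP.4, from 99 reads over the VC group and 179 over the AP group. Whether reads of Micu3 were counted for Fgf20 was not tested.

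Fgf22 (ENSMUSG00000020327, chr10:79755076-79758596, plus strand) is a ligand described in the inner root sheath. Fgf22 had 16.4, 45.8, 60.1 and 20.6 normalized counts in VC.1 through VC.4 and 26.8, 16.2, 36.9 and 38.6 in AP.1 through AP.4. The VC libraries held both the highest value and one close to the lowest, and the groups overlapped. Its reads numbered 95 over the VC group and 195 over the AP group. The log2 fold change was -0.15 (SE 0.49, 95% interval -1.21 to 0.92; limma adjusted p = 0.867), and it turned positive in 5 of 21 alternatives, among them total-count scaling, which shifts all genes upward. An exon of Rnf126 on the other strand overlaps Fgf22; at a mean of 510.3 normalized counts in VC and 486 in AP, the genes share only a short stretch at their ends, and reads from it cannot be assigned to either gene unless strand was used. Exons of the antisense genes Gm16263 and Gm16159 overlap those of Fgf10 and Fgfr1 on the other strand. An exon of Ctbp2 overlaps Fgfr2 on the same strand, where strand does not separate them. Fgfr3 has such an overlap with G630022F23Rik on the other strand, a gene without a row in the deposited expression table.

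Of the receptors, Fgfr1 (ENSMUSG00000031565, chr8:25513654-25575718, plus strand) is the form of dermal fibroblasts and the dermal papilla, also present in epithelium. Fgfr1 had 1089.6, 1159, 1760.1 and 1206 normalized counts in VC.1 through VC.4 and 1171, 1196, 1072 and 719 in AP.1 through AP.4. VC.3 stood above the other libraries and AP.4 below them, and the remaining ones lay close together. The group means were 1303 ± 308 in VC and 1039 ± 220.3 in AP (SD, n = 4 each), over 3315 and 6989 reads. The log2 fold change was -0.33 (SE 0.21, 95% interval -0.78 to 0.13; limma adjusted p = 0.310), not beyond the spread between libraries, and it was 0.54 with total-count scaling. It was -0.17 without VC.3 and -0.16 without AP.4.

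Fgfr2 (ENSMUSG00000030849, chr7:130162451-133123350, minus strand) is in its epithelial splice form the receptor of Fgf7 and Fgf10. Fgfr2 had 731, 674, 694 and 330.0 normalized counts in VC.1 through VC.4 and 813, 642, 1122 and 1069 in AP.1 through AP.4. AP.1, AP.3 and AP.4 were above every VC library, AP.2 was within the VC range, and VC.4 was far below the other VC libraries. The means were 607 ± 186 in VC and 912 ± 225 in AP (SD, n = 4 each), over 1542 and 6059 reads. Its log2 fold change was 0.62 (SE 0.27, 95% interval 0.03 to 1.20), with a limma adjusted p of 0.146 and an exact permutation p of 0.114, two-sided. Without VC.4 the log2 fold change was 0.35 and the limma adjusted p 0.277, within a range of 0.00264 to 0.325 over the 21 alternatives. The counts are per gene, so the epithelial and mesenchymal splice forms were not separated.

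Fgfr3 (ENSMUSG00000054252, chr5:33721674-33737068, plus strand) is expressed in the epithelium of skin and follicle. Fgfr3 had 349, 442, 464 and 182 normalized counts in VC.1 through VC.4 and 449, 465, 802 and 800.4 in AP.1 through AP.4. AP.3 and AP.4 were well above all VC libraries, AP.2 exceeded the highest VC library narrowly, and AP.1 fell between VC.2 and VC.3. The means were 359 ± 128 in VC and 629 ± 199 in AP (SD, n = 4 each), over 928 and 4211 reads. For Fgfr3 the log2 fold change was 0.84 (SE 0.31, 95% interval 0.16 to 1.51), with a limma adjusted p of 0.0964, higher values than any VC library in 3 of 4 AP libraries and an exact permutation p of 0.0571, two-sided. Its log2 fold change lay above 0 in all 21 alternatives, from 0.54 without VC.4 to 1.71 with total-count scaling. Total-count scaling was the only one of them to call Fgfr2 (adjusted p = 0.00264) and Fgfr3 (adjusted p = 0.00305, the highest over the alternatives being 0.242).

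**Figure D1:**
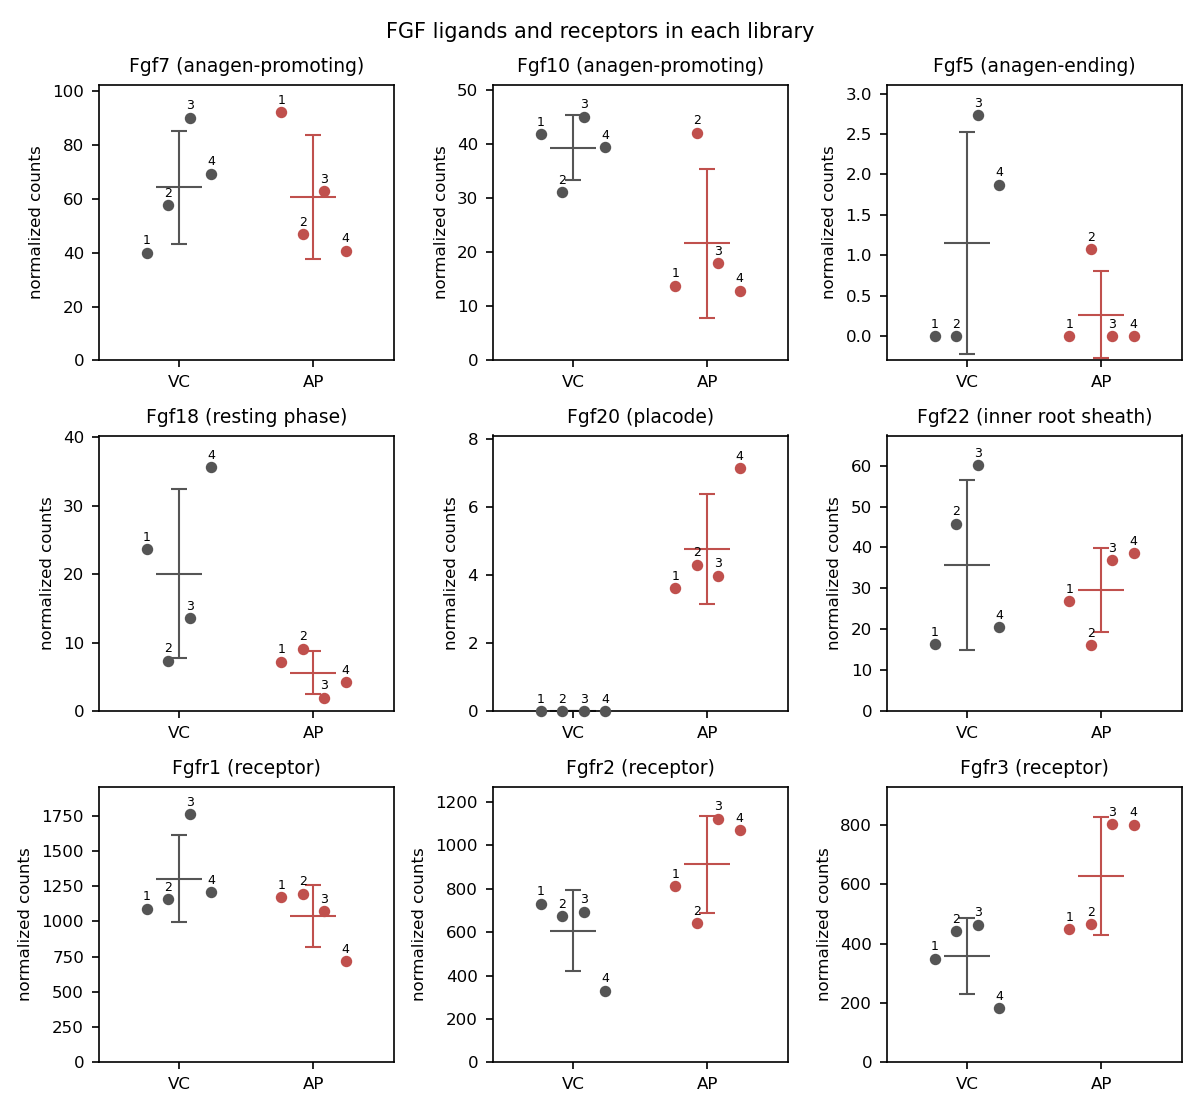
Normalized counts of the 9 FGF genes in each library; points are libraries numbered as in the text, horizontal bars the group mean and whiskers the SD (n = 4 per group), on linear axes of different height. Fgf20 is at 0 throughout VC and spans 3.63 to 7.15 in AP, and the groups overlap for the other 8 genes.

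Within libraries, the ratio of Fgfr3 to Fgfr1 was 0.321, 0.381, 0.264 and 0.151 in VC.1 through VC.4 and 0.384, 0.389, 0.748 and 1.11 in AP.1 through AP.4. All AP ratios lay above all VC ratios, though AP.1 exceeded VC.2 by very little. The mean log2 ratio was higher by 1.17 in AP, with an exact permutation p of 0.0286, two-sided, the smallest possible. For Fgfr2 to Fgfr1 the ratio was 0.671, 0.582, 0.394 and 0.274 in VC.1 through VC.4 and 0.695, 0.537, 1.05 and 1.49 in AP.1 through AP.4. These groups overlapped through AP.2, and the difference of 0.95 in mean log2 ratio gave an exact permutation p of 0.114. As the 3 ratios were picked after the values were known, their p-values describe them and support nothing further.

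Keratinocytes carry Fgfr2 and Fgfr3, and the levels of their markers are given beside those of the receptors. The 6 markers of basal and outer root sheath keratinocytes summed to 24117, 78090, 46700 and 21902 normalized counts in VC.1 through VC.4 and 49171, 52381, 94066 and 138232 in AP.1 through AP.4, with overlapping groups (exact permutation p = 0.114). VC.4, where both receptors were lowest, had the lowest sum, and AP.3 and AP.4, where both were highest, had the highest sums. VC.2 had a sum above those of AP.1 and AP.2. It had less Fgfr2 and Fgfr3 than AP.1, and more Fgfr2 but less Fgfr3 than AP.2. By limma 3 of the 6 were called higher and 0 lower, beside 6.33% and 4% of all genes tested. The median log2 fold change of the 6 was 1.07. Only 1 was called without VC.1, VC.4, AP.3 or AP.4, and 1 without the intensity trend. Krt14 was the most abundant (log2 fold change 1.02, adjusted p = 0.212), and Itga6 the most changed (1.92, adjusted p = 0.00896; higher in 4 of 4 AP libraries). Suprabasal markers summed to 5699, 12462, 8462 and 5492 normalized counts in VC and 42852, 40713, 119303 and 169726 in AP, without overlap. Of these 11 markers 10 were called higher and 0 lower, with a median log2 fold change of 3.22; Krt10 was the most abundant (3.85, limma adjusted p = 0.00367) and Hrnr the most changed (4.41, limma adjusted p = 0.0104, but 0.161 by limma-voom), both higher in 4 of 4 AP libraries. Lor and Casp14, named after their values were seen, had less stable calls. The Lor call was lost in 8 of 21 alternatives, and its groups overlapped (416 in AP.2 against 692 in VC.3). That of Casp14 was lost in 3 of 21. The other suprabasal calls held in every alternative, apart from that of Hrnr by limma-voom. No marker of either list was at 0. Several suprabasal markers are genes of the epidermis between follicles as well. Whether some of that epidermis remained, and in unequal amounts between the groups, was not tested. The part of either marker list in the receptor values was not tested either.

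Across the 9 genes, limma called 0 at an adjusted p under 0.05. Of the 15964 genes tested, 10.3% were called in either direction, 1011 of them (6.33%) higher and 639 lower in AP. Of the 8 FGF genes tested, 5 had an unadjusted p under 0.05 (Fgf10, Fgf18, Fgf20, Fgfr2 and Fgfr3), beside 30.3% of all genes. DESeq2 called 2 (Fgf20 higher, Fgf18 lower), beside 17.4% of the 17622 genes to which it gave an adjusted p. edgeR called 0 and limma-voom 0, beside 10.7% and 9.01% of all genes. Groups that did not overlap were found for 1 of the 9, Fgf20, beside 19.2% of the genes tested. The median log2 fold change of the 8 was -0.12, with 3 above 0 and 5 below, and that of all genes tested was 0.06; 1 of the 8, Fgf20, had passed the filter only through AP.

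Total-count scaling, in which the unequal mitochondrial reads enter the library sizes, moved the median of the log2 fold changes over the whole table by 0.84. Relative to the median of all genes under the same scaling, Fgf7 was at -0.15 with the deposited size factors and -0.14 with total counts. The corresponding values were -1.04 and -1.04 for Fgf10, -1.65 and -1.72 for Fgf18, and -0.20 and -0.21 for Fgf22. For Fgf20, at 0 in VC, they were 2.43 and 1.91. For the receptors they were -0.39 and -0.36 for Fgfr1, 0.56 and 0.59 for Fgfr2, and 0.78 and 0.81 for Fgfr3. Apart from Fgf20, the values of each pair lie close together by construction, since a change of scaling shifts genes of measurable level nearly alike.

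**Figure D2:**
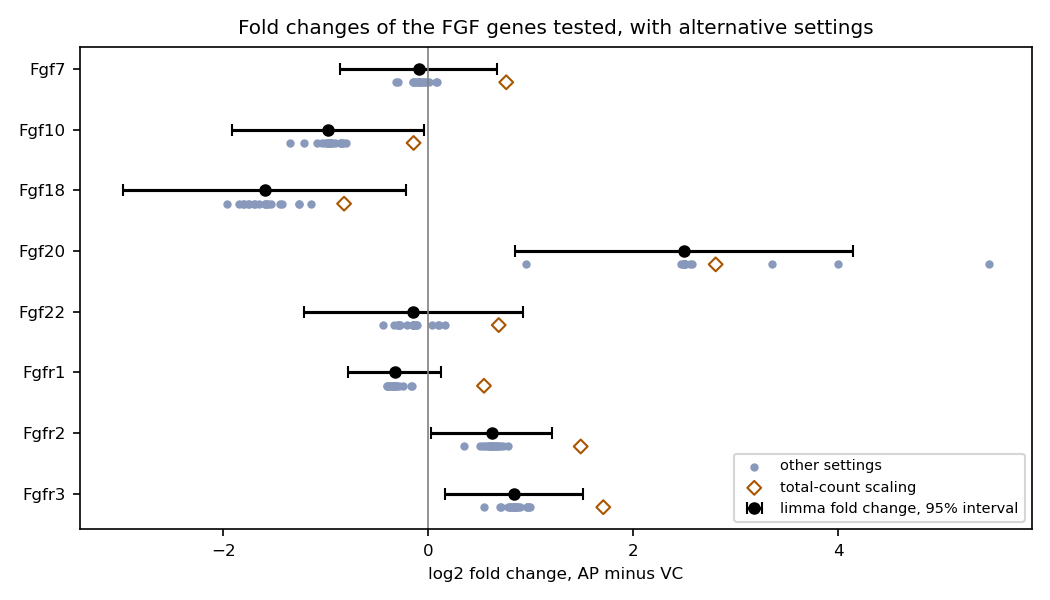
Log2 fold changes of AP against VC for the 8 FGF genes tested; black points with bars are limma estimates with 95% intervals, small points the alternative settings and diamonds the scaling by total counts. Fgf7, Fgf22 and Fgfr1 cross 0 with total-count scaling; the fitted value of Fgf20 depends on the count added before taking logs, because its VC libraries are at 0.

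The genes with the profiles nearest to each FGF gene were sought among 11256 genes with a mean of at least 50 normalized counts, by the mean absolute difference between centred log2 profiles over the 8 libraries. Nearest to Fgfr3 were Eps8l2 (difference 0.09) and Lad1 (0.10), and nearest to Fgfr2 were Rpap1 (0.08) and Yes1 (0.08). Fgfr3 ranked 71 for Fgfr2 and Fgfr2 ranked 62 for Fgfr3 at a difference of 0.19. Nearest to Fgfr1 were Nfia (0.10) and 9530082P21Rik (0.11), and nearest to Fgf7 were Rasgrp4 (0.15) and Ankrd16 (0.17), with Fgfr1 at rank 59 for Fgf7 (0.25). Fgfr1, the fibroblast receptor, ranked 6375 for Fgfr3. Genes with the same group difference come near one another by construction of this measure, and the other members had means under 50.

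Promoter windows of RefSeq (GRCm38.p6), from 250 bases before to 50 after a gene start, were given for 7 of the 9 genes and not for Fgf20 and Fgfr1. The RefSeq start of Fgfr2 lies inside the longer span given above, which comes from GENCODE and starts at chr7:133123350 on the minus strand. Those of Fgfr2 and Fgfr3 are printed because these 2 receptors had the closest pair of profiles among the FGF genes compared, a choice made after their values were seen. They read 5′ to 3′ on the gene's own strand; Fgfr2 is chr7:130266759-130267058 on the minus strand, and Fgfr3 has 2 windows on the plus strand, chr5:33721474-33721773 and chr5:33722056-33722355.
Fgfr2: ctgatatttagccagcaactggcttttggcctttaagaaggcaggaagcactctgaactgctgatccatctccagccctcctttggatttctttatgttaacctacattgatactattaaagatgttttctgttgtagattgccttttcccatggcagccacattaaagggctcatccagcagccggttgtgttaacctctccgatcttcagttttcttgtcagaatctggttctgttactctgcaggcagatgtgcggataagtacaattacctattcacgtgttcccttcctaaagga
Fgfr3 upstream window: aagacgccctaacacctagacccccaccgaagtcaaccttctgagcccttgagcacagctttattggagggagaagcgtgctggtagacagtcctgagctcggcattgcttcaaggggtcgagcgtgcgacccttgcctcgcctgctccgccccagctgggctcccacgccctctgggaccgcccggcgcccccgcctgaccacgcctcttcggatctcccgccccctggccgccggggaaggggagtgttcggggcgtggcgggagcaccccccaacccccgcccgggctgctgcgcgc
Fgfr3 downstream window: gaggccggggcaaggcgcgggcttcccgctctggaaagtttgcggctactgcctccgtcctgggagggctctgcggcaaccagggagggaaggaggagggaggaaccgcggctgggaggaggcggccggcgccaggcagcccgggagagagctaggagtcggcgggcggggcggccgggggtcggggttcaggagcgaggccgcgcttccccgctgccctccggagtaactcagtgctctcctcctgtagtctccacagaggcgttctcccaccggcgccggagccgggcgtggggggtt
GC content was 43.7% in the Fgfr2 window and 69.7% and 73.0% in those of Fgfr3, so the windows differ widely in base composition. Letters were searched on both strands for AP-1 (TGANTCA, present in 7.81% of 32851 windows of this length), TCF (CTTTGA, 5257 of these windows) and ETS (CCGGAA, 14.9%). None of these letters was in the 3 printed windows, which therefore carry no capitals, and of the 8 windows of FGF genes 1, that of Fgf5, held the ETS letters. This describes these windows only.

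The other genes of the pathway were taken from lists fixed by name, and the medians of their log2 fold changes are to be read beside 0.06 over all genes tested, of which 10.3% were called and 53.5% had a fold change above 0. Among 8 other FGF ligands tested 0 were called by limma and 1 had an unadjusted p under 0.05. Their median was -0.07, of a sign that changed in 6 of 21 alternatives, and Fgf2 (-0.56, adjusted p = 0.120) and Fgf14 (0.53, adjusted p = 0.730) had the largest changes. Fgf14 had no read in VC.1 and some reads in every other library. Its mean was 11.16 normalized counts in VC and 11.21 in AP, so its positive fold change rested on VC.1. Fgf4, named after its values were seen, had 0 reads over the VC group and 14 over the AP group and missed the filter. Fgf3, Fgf6, Fgf8, Fgf15, Kl, Anos1 and Spry3 were not found by their symbols in the deposited expression table and so were not analysed.

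Of 16 other receptors, co-receptors and binding proteins, 2 were called higher and 1 lower, with 14 fold changes above 0 and a median log2 fold change of 0.69 (0.46 without VC.1). Their summed level was higher in all 4 AP libraries than in any VC library (exact permutation p = 0.0286). Sdc1, a heparan sulfate proteoglycan, had 1147 normalized counts in VC and 2528 in AP on average (log2 fold change 1.13, SE 0.29, limma adjusted p = 0.0350; higher in 4 of 4). Flrt2, a membrane protein that binds FGF receptors, had a log2 fold change of 1.04 (limma adjusted p = 0.0275; higher in 4 of 4). The glypican Gpc1 had one of -0.55 (limma adjusted p = 0.0483; lower in 4 of 4); with total-count scaling it was 0.32, while relative to the median of all genes it was -0.61 and -0.58 under these scalings. The Sdc1 call was lost without VC.1, VC.4, AP.2, AP.3 or AP.4 (adjusted p 0.0612 to 0.107), and that of Flrt2 without VC.4, AP.2 or AP.3 (0.0506 to 0.0837); both were also lost without the intensity trend. The Gpc1 call was lost in 14 of 21 alternatives, among them TMM factors, no filter, no trend, edgeR and reads drawn down, and without VC.1, VC.3, VC.4, AP.1, AP.2, AP.3 or AP.4 (0.0541 to 0.130).

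Downstream of the receptors, some genes were higher in AP. Of 11 feedback inhibitors 2 were called higher and 0 lower, with all 11 fold changes above 0 and a median of 0.81 (0.55 without VC.4). Cbl, a ubiquitin ligase that takes receptors off the membrane, had a mean of 232 normalized counts in VC and 469 in AP (log2 fold change 0.995, SE 0.17, limma adjusted p = 0.0107), higher in 4 of 4. Il17rd, the membrane antagonist Sef, had a log2 fold change of 1.57 (limma adjusted p = 0.0404), with overlapping groups and a call lost in 10 of 21 alternatives: without the trend, by limma-voom, with reads drawn down, and without VC.1, VC.2, VC.4, AP.1, AP.2, AP.3 or AP.4 (0.0541 to 0.112 for the left-out libraries). Among 9 transcription factors and targets induced by FGF, 2 were called higher and 0 lower, with a median of 0.65. Ccnd1, the most abundant of these and named after its values were seen, had lower values in 4 of 4 AP libraries but was not called (log2 fold change -0.43, limma adjusted p = 0.0722; 0.44 with total-count scaling, adjusted p = 0.0377). DESeq2 (0.0302) and limma with upper-quartile factors (0.0464) called it lower, within adjusted p of 0.0302 to 0.200 over the alternatives. Fos had 335 normalized counts in VC and 1954 in AP on average (log2 fold change 2.56, SE 0.20, limma adjusted p = 6.3e-04), and Ier2 442 and 865 (0.95, SE 0.17, limma adjusted p = 0.0113), both higher in 4 of 4. Cbl, Fos and Ier2 were called under each of the 21 alternatives. These genes respond to other receptors too, so the counts say nothing of which ligand was upstream.

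**Figure D3:**
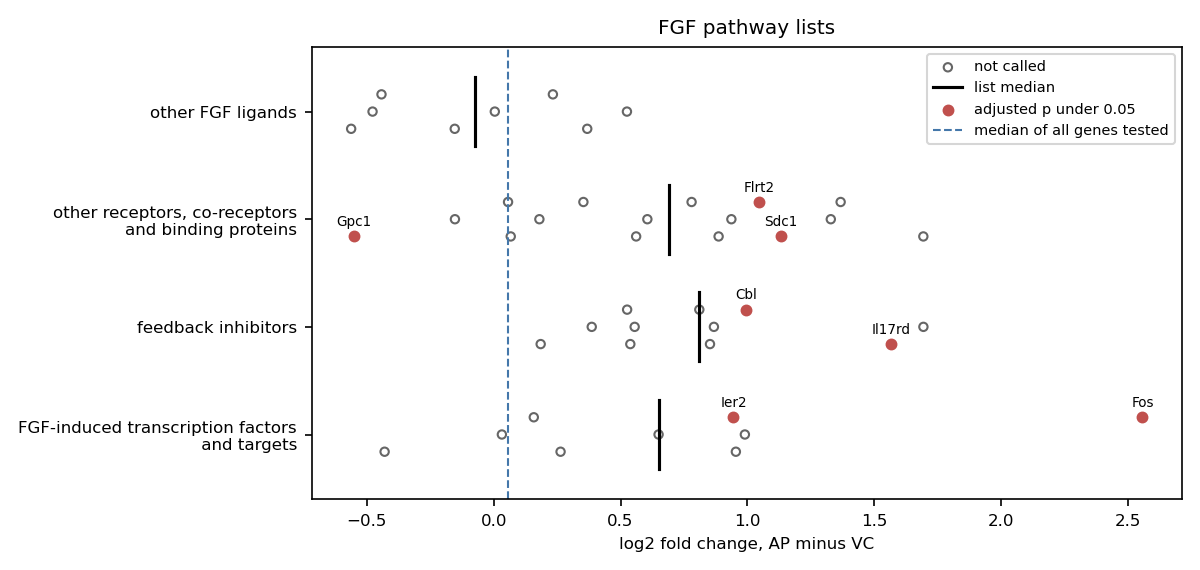
Log2 fold changes of AP against VC for the tested genes of FGF pathway lists; filled points were called at an adjusted p under 0.05, short bars are list medians and the dashed line is the median of all 15964 genes tested (0.06). The medians run from -0.07 for the other ligands to 0.81 for the feedback inhibitors.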

How the data were processed

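Messenger RNA was sequenced from 8 skin libraries. According to the methods and the submitters' processing notes, reads were cleaned by the authors, placed on mm10 with STAR, counted per gene (featureCounts in the methods, HTSeq in the notes) and normalized and compared groups with DESeq2; versions are not given in the sources used here. The deposited signal values are read counts divided by 1 size factor per library. All 150160 values (100%) were whole multiples of 1 step per library within 0.01 reads, so the reads were recovered. The other deposited columns hold the authors' own comparison (a mean, fold changes, a statistic and p-values) and were not used.

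The table was fitted in R 4.3.3 with limma 3.58.1 (trend, two-sided) on log2(value + 1), for genes reaching 3 normalized counts in 4 or more libraries, with Benjamini-Hochberg adjustment over all 15964; fold changes on this scale understate changes of low genes. Calls are adjusted p under 0.05. Single values were compared by exact permutation over 70 assignments. edgeR 4.0.16, DESeq2 1.42.0 and limma-voom were run on the recovered reads, where edgeR called 1715 genes and DESeq2 3061. Other alternatives were the scaling (TMM, upper quartile, totals with and without mitochondrial genes), added counts of 0.5 and 5, no filter and a filter of 10. Further ones were no trend, reads drawn down with a fixed seed, each library left out and the median transcript length. The limits of the study's methods (unadjusted p under 0.01, fold over 1.5) were put on the limma fit, whereas the study used them with DESeq2. Coordinates and lengths come from GENCODE M21 (18766 of 18770 identifiers matched). Permutations, sums and plots used Python 3.11.15 with NumPy 2.4.6, pandas 2.3.3 and matplotlib 3.10.9.

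Members and lists were chosen with earlier results of these data known. Named were all 9 FGF genes; of each pathway list given the called genes or, with none called, the 2 with the largest change; of each cell type list the most abundant and the most changed gene; and the 2 genes nearest in profile to each FGF gene with a mean of at least 50. Library columns could be tied to groups but not to single mice. A further pathway list is not reported here.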

Additional observations from a re-analysis of the deposited data

Results flagged for a closer look

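Of 41 groups of 4 libraries examined (the 9 FGF genes, the cell type lists and the mitochondrial share), 4 held a library whose gap to its nearest neighbour took up more of the group's range than Dixon's critical value at 95% allows; chance alone gives about 1 in 20. Fgf5 in AP.2 had 1.078 normalized counts, from 2 reads, where the other AP libraries were at 0. A group with a single library above 0 is flagged by construction, so this flag says nothing of AP.2. Fgfr2 in VC.4 had 330.0 normalized counts, where the next VC library had 674. The summed skeletal muscle markers in AP.1 were at 51656 normalized counts, where the other AP libraries had 7663, 4583 and 10107. The summed endothelial markers in AP.2 were at 4786 normalized counts, where the others had 1886, 1678 and 1777.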

How the results depend on the processing

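The count of called genes was 1650 (1011 higher, 639 lower). It was 8741 with total-count scaling (8676 higher, 65 lower), 592 without the intensity trend and 3061 by DESeq2, and 307 to 1873 with 1 library left out, lowest without AP.3; the cause was not tested. With the p and fold limits of the study's methods, put on the limma fit, it was 2169. The study used these limits with DESeq2, so this count does not repeat the study's own. Of the called genes 61.3% were higher, against 49.9% with upper-quartile factors, 49.7% by limma-voom and 99.3% with total counts.

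The count of FGF genes called was 0. It was 3 with total counts, 2 by DESeq2, 1 with no filter and 1 without the trend. With the limits of the methods put on the limma fit it was 1 (Fgf20), and with any 1 library left out it was 0. The log2 fold change changed sign for Fgf7 with total counts (0.76) and with a library left out (range -0.32 to 0.0860), for Fgf22 with total counts (0.69), with reads drawn down (0.0907) and with a library left out (-0.44 to 0.16), and for Fgfr1 with total counts (0.54); none of these 3 was called in any alternative. The other 5 kept their sign in every alternative that tested them. With the filter of 10, Fgf18 and Fgf20 were not tested, nor was Fgf20 without any 1 AP library, since each leaves too few libraries above the minimum. No paired analysis was possible because the groups share no replicate numbers. Depth limits Fgf5, Fgf18 and Fgf20, the members with the fewest reads. Leaving the most abundant gene out of each cell type sum, an alternative chosen after seeing the data, changed the sign of the log2 difference for adipocytes only (-0.0387; 0.15 with it).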

Other observations

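Other cell type lists were measured beside the FGF genes, and their part in the values was not tested. Counts of called markers are to be read beside 6.33% of all genes tested called higher and 4% lower. The 5 endothelial markers summed to 720.3, 562, 1064 and 1223 normalized counts in VC.1 through VC.4 and 1886, 4786, 1678 and 1777 in AP.1 through AP.4, without overlap, and limma called 2 higher (Pecam1, the most abundant, log2 fold change 1.44, adjusted p = 0.0198; Cdh5, the most changed, 1.75, adjusted p = 0.0386). The Cdh5 call was lost without VC.1, VC.2, AP.2, AP.3 or AP.4 (adjusted p 0.0651 to 0.0880), and without the intensity trend neither Pecam1 (0.0608) nor Cdh5 (0.0949) was called. The 5 melanocyte markers summed to 4222, 3189, 3763 and 1313 in VC and 1212, 1463, 1943 and 1111 in AP, and limma called 3 lower, with Dct the most abundant (-0.83, adjusted p = 0.115) and Mlana the most changed (-2.03, adjusted p = 0.00237, lower in 4 of 4). The count of 3 came down to 1 with total counts, with or without mitochondrial genes, without the trend, and when VC.1, VC.2, VC.3, AP.1, AP.2, AP.3 or AP.4 was left out. Tyr and Pmel, named after their values were seen, then lost their calls, with adjusted p from 0.0596 to 0.105 and 0.0717 to 0.116 for the left-out libraries and up to 0.305 and 0.352 over all alternatives.

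For the remaining 5 lists limma called 0 genes each. The numbers at an unadjusted p under 0.05 below are to be read beside 30.3% of all genes tested. Hair matrix and inner root sheath markers had a median log2 fold change of 0.99 (0.55 to 1.39 over the alternatives other than total counts), with 3 of 7 at an unadjusted p under 0.05 and Krt71 both the most abundant and the most changed (2.01, adjusted p = 0.0575). The medians were 0.28 for dermal fibroblasts (0.08 to 0.56 over these alternatives; 2 of 8; Col1a1 the most abundant at 0.63, Dpt the most changed at -0.85) and 0.26, with a changed sign in 2 of 21 alternatives, for adipocytes (1 of 6; Fabp4 at 0.28, Plin1 at 1.03). They were -1.65 for skeletal muscle (5 of 6; Acta1 at -1.92) and, for leukocytes, -0.68 but 0.18 with total counts (4 of 6; Lyz2 at -1.08, Cd3e at 1.18). Each list but skeletal muscle held fold changes of both signs. Those above and below 0 numbered 4 and 3 for hair matrix and inner root sheath, 5 and 3 for dermal fibroblasts and 4 and 2 for adipocytes. They numbered 0 and 6 for skeletal muscle and 1 and 5 for leukocytes. No marker of these lists was at 0 in either group.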
